A study of Homo sapiens with 6 samples.

Results

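The genes described here are 10 drivers and markers of the epithelial-mesenchymal transition (EMT), measured in cells treated with decitabine (5-aza-2′-deoxycytidine, DAC), a cytidine analog that inhibits DNA methyltransferases. They were taken by symbol as a fixed list: the transcription factors ZEB1, ZEB2, SNAI1, SNAI2, TWIST1 and TWIST2, the cytoskeletal gene VIM, the cadherin gene CDH2, and the matrix genes FN1 and SPARC. All 10 were found among the 23617 symbols of the MDA-MB-231 table, as 23 of its 43497 transcripts, and 3 of the 10 among the 1854 symbols of the HMLER table. RNA was sequenced from 6 libraries: 1 of untreated and 1 of DAC-treated MDA-MB-231 cells, and 2 of untreated and 2 of DAC-treated HMLER cells. Treated cells received 10 µM DAC every day and were collected at 72 h. MDA-MB-231 is a human breast cancer line, HMLER is a line of human mammary cells transformed in vitro, and each library came from a pool of RNA extractions. The untreated MDA-MB-231 library carries another cell line number in 1 of its labels, and its title was used.

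EMT is the program by which epithelial cells lose their junctions and polarity and take on the shape, matrix and motility of mesenchymal cells. ZEB and SNAI proteins are zinc-finger repressors that bind E-boxes in promoters of epithelial genes such as CDH1, and TWIST proteins are basic helix-loop-helix factors that act with E proteins. Vimentin, N-cadherin, fibronectin and SPARC are the classical gene products by which the mesenchymal state is recognized. MDA-MB-231 is widely used as a line with mesenchymal features, and HMLER cells keep basal epithelial features.

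Expression is given as FPKM, the fragments of a transcript corrected for its length and for the depth of the library, summed over the transcripts of a symbol. In HMLER only the transcripts in its table could be summed. For some genes with several transcripts, HMLER levels and ratios are thus those of a part of them, TWIST2 among the 10. Low FPKM values in MDA-MB-231 came in steps of 1 read: after the size of the step had been fitted, 100% of 753 low values without DAC and of 793 with DAC lay within 0.1 of a whole read. A read on 1 kilobase was worth 0.0235 FPKM without and 0.0236 FPKM with DAC, and the summed FPKM was 589238 without and 480455 with DAC. The reads behind each gene were computed from these steps and are estimates for genes with several transcripts, ZEB1, ZEB2 and FN1 among the 10. With 1 library per condition there is no replicate check in MDA-MB-231. The intervals of a ratio below are exact binomial 95% intervals on these reads, cover counting error only, and compare these libraries and not the conditions. Cuffdiff's own bounds for each value, which belong to single transcripts, were much wider. A gene was called higher or lower when its DAC/untreated ratio was above 2 or below 0.5 and at least 1 library reached 1 FPKM. In bulk RNA, a higher level in every cell and more cells that express the gene cannot be told apart.

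The label of MDA-MB-231 was compared with markers. ESR1 and PGR, the estrogen and progesterone receptors, were listed at 0 in the untreated library, KRT18 was at 174 FPKM, and VIM was the 7th most abundant of all symbols. KRT5 and KRT14, basal keratins, were at 0.0112 and 0 FPKM in untreated MDA-MB-231 cells and at 9.85 and 11.6 FPKM in untreated HMLER cells. KRT17 and TP63, also basal, were listed at 0 in untreated MDA-MB-231 cells, and KRT17 was at 6.33 FPKM in untreated HMLER cells. Not all markers went this way. EGFR, read as basal, was at 34.7 FPKM in untreated MDA-MB-231 cells and was not in the HMLER table. Of luminal markers, KRT8 was at 154, ERBB2 at 11.8, EPCAM at 7.90, FOXA1 at 1.10 and GATA3 at 0.795 FPKM in untreated MDA-MB-231 cells. Of 6 markers of blood, endothelial and fat cells, 0 reached 1 FPKM in MDA-MB-231. Their summed FPKM was 0.0619 without and 0.624 with DAC, with ADIPOQ among those at 0 without DAC, and the part of such RNA in the results below was not tested.

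In MDA-MB-231, 9 of the 10 genes reached 1 FPKM in at least 1 library. After DAC, SNAI1, TWIST1, CDH2, FN1 and SPARC were more than 2-fold higher (5 genes), ZEB1 and VIM were more than 2-fold lower (2 genes), and ZEB2 and SNAI2 were between these limits. Over all 12525 symbols past the same filter, 10.8% were called higher and 4.82% lower. The median DAC/untreated ratio over 11292 symbols that reached 1 FPKM in both libraries was 0.912, and when DAC values were divided by it the split was 5 higher and 1 lower, since ZEB1 came to a ratio of 0.538. When Cuffdiff's bounds of the libraries also had to be apart, SPARC was the 1 gene left among the higher and 0 were left among the lower, where 0.942% of all symbols were then higher and 0.279% lower.

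**Figure D1:**
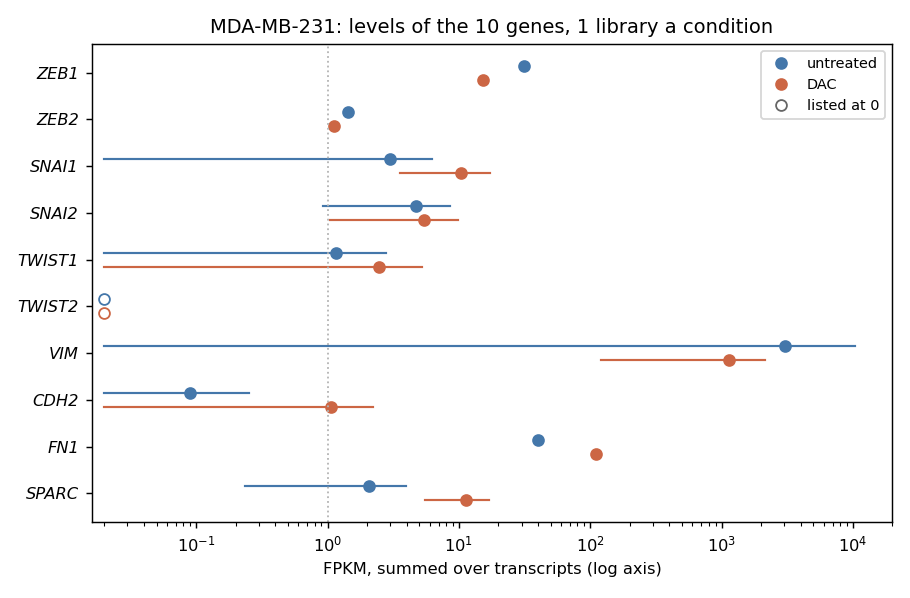
FPKM (log axis) of the 10 genes in the untreated (blue) and the DAC-treated (orange) MDA-MB-231 library; lines are Cuffdiff's bounds for genes with 1 transcript, drawn from 0.02 where the lower bound is less, open circles are values listed at 0, and the dotted line marks 1 FPKM. VIM lies highest in both libraries, at 3066 and 1134 FPKM, and SPARC is the gene whose lines do not overlap.

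The genes spanned a wide range of levels before treatment. In untreated MDA-MB-231 cells the order by FPKM was VIM, FN1, ZEB1, SNAI2, SNAI1, SPARC, ZEB2, TWIST1, CDH2 and TWIST2. After DAC, SPARC and SNAI1 stood above SNAI2, and TWIST1 above ZEB2. Most neighbors in these orders could not be separated by Cuffdiff's bounds: the main transcripts of FN1 and ZEB1 in untreated cells had bounds of 12.7 to 45.5 and 4.99 to 24.6 FPKM, and those of SNAI2, SNAI1, SPARC, ZEB2 and TWIST1 all overlapped. The levels give a scale for each ratio. Of 460 symbols past the filter with a mean under 1 FPKM, such as CDH2, 69.1% were called higher. Of 5100 symbols between 1 and 10 FPKM, where SNAI1, TWIST1 and SPARC lie, 16.3% were called higher. Of 5967 between 10 and 100 FPKM, where FN1 and ZEB1 lie, 3.02% were called higher and 4.02% lower, and of 998 above, where VIM lies, 1.9% were called higher and 6.91% lower.

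**Figure D2:**
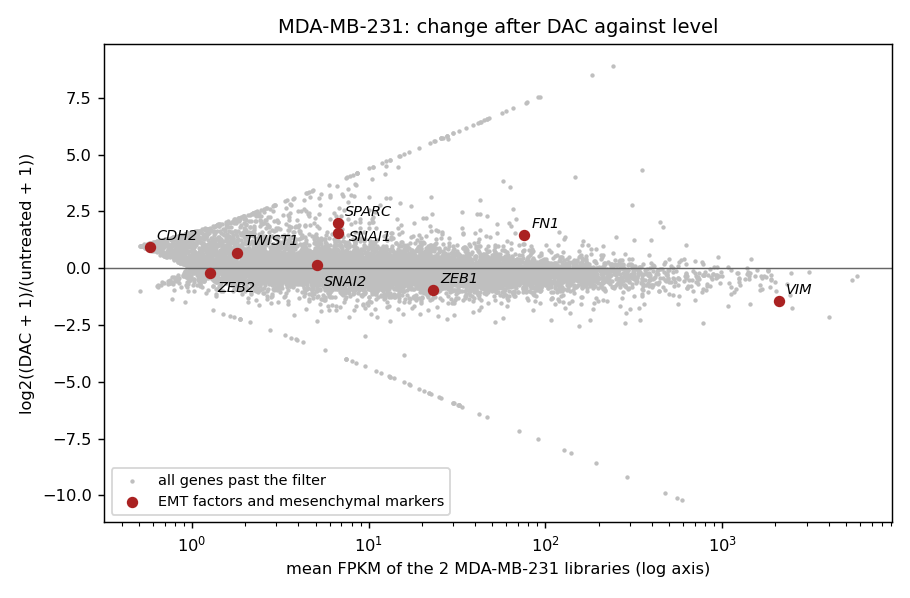
Log2 of (DAC + 1)/(untreated + 1) against the mean FPKM of the MDA-MB-231 libraries (log axis) for 12525 symbols (gray) and for the 9 EMT genes past the filter (red); gray points on the slanted edges are symbols at or near 0 in 1 library. SPARC, SNAI1 and FN1 lie above 0 at 2.0, 1.53 and 1.46, and VIM lies at -1.43 at the right edge.

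The ZEB genes encode large repressors with zinc fingers at both ends and a homeodomain-like segment between them. ZEB1 (hg19, chromosome 10, 31608101 to 31818742) was at 31.1 FPKM (7661 reads) without and 15.2 FPKM (3737 reads) with DAC in MDA-MB-231, which gave a ratio of 0.491 (interval 0.472 to 0.510). It thus passed the 2-fold limit narrowly. Of its 6 transcripts, NM_001174096 and NM_030751 held nearly all of the signal, and they differ by 3 bases in length (5991 and 5988), so that the split of reads between them is uncertain. NM_030751 was at 16.1 and 5.99 FPKM and NM_001174096 at 14.8 and 9.11 FPKM, with ratios of 0.371 and 0.617. For each of these, the bounds of the libraries overlapped (5.97 to 26.3 against 1.66 to 10.3 FPKM, and 4.99 to 24.6 against 3.78 to 14.4 FPKM). ZEB1-AS1, the antisense RNA that starts next to ZEB1, was at 3.87 and 4.58 FPKM, a ratio of 1.19 (interval 1.02 to 1.38).

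ZEB2 (chromosome 2, 145141942 to 145278465) was low, with 1.43 FPKM (522 reads) without and 1.12 FPKM (400 reads) with DAC, at a ratio of 0.783 (interval 0.675 to 0.880). NM_014795 carried 92.2% of its FPKM without and 90.7% with DAC. ZEB2-AS1 lies within the same locus and was listed at 0 in both libraries. The kit named in the labels does not mark the strand, so reads of a gene and of its antisense partner cannot be told apart. Neither ZEB gene was in the HMLER table.

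**Figure D3:**
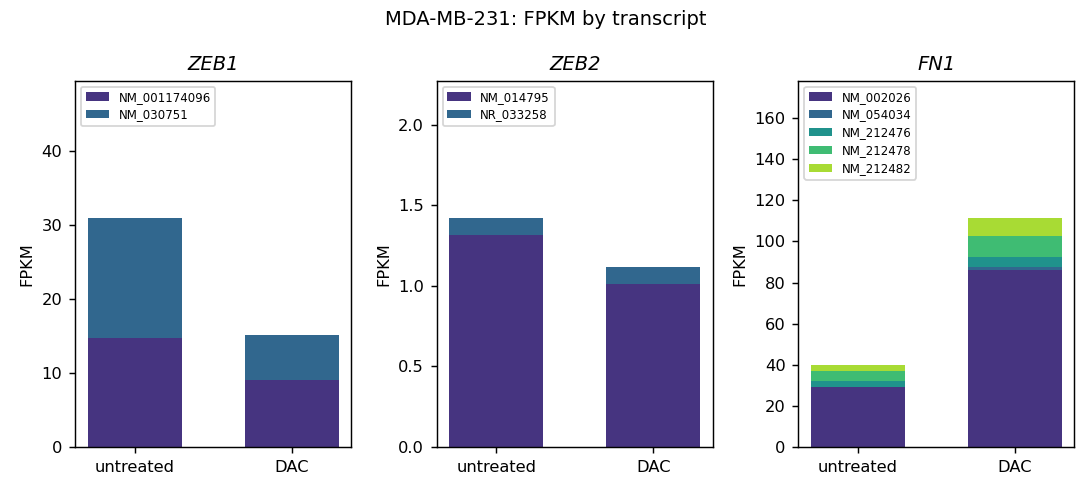
FPKM of ZEB1, ZEB2 and FN1 in the untreated and the DAC-treated MDA-MB-231 library, stacked by RefSeq transcript for transcripts with over 1% of the gene's FPKM summed over both libraries. NM_030751 of ZEB1 shrinks most, from 16.1 to 5.99 FPKM, and NM_002026 makes up most of FN1 in both libraries.

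The SNAI genes encode the Snail and Slug repressors, which are known to silence CDH1. SNAI1 (chromosome 20, 48599513 to 48605420) was at 2.97 FPKM (190 reads) without and 10.5 FPKM (666 reads) with DAC in MDA-MB-231, giving a ratio of 3.53 (interval 3.0 to 4.17). Cuffdiff's bounds, 0 to 6.21 and 3.55 to 17.4 FPKM, overlapped. In HMLER, SNAI1 was at 3.06 FPKM without and 7.40 FPKM with DAC, for a ratio of 2.42. SNAI1 was thus the 1 gene of the 10 called higher in MDA-MB-231 that was also in the HMLER table. Of all 12525 symbols past the filter, called or not, 10.9% were in that table. The share among all symbols called higher was not computed. SNAI2 (chromosome 8, 49830239 to 49833999) was at 4.75 FPKM (386 reads) without and 5.42 FPKM (437 reads) with DAC in MDA-MB-231, giving a ratio of 1.14 whose interval of 0.991 to 1.31 spans 1. In HMLER it was the most abundant of the listed genes among the 10, with 14.3 FPKM without and 29.8 FPKM with DAC, and its ratio of 2.09 lies close to the lower limit of that table.

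TWIST1 (chromosome 7, 19155091 to 19157295) was at 1.16 FPKM (72 reads) without and 2.45 FPKM (152 reads) with DAC in MDA-MB-231, giving a ratio of 2.12. Its interval of 1.59 to 2.85 includes 2, and Cuffdiff's bounds, 0 to 2.81 and 0 to 5.28 FPKM, overlapped. TWIST2 (chromosome 2, 239756673 to 239832237) was listed at 0 in both MDA-MB-231 libraries for both of its transcripts. A count of 0 allows up to 3 reads, or 0.0724 FPKM in the untreated library for its longer transcript of 1176 bases. In HMLER, 1 of the 2 TWIST2 transcripts was listed, at 1.31 FPKM without and 3.21 FPKM with DAC, for a ratio of 2.46. TWIST1 was not in the HMLER table.

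In HMLER, 2 libraries a condition were merged into a single value, so no spread could be computed. The table holds 2009 transcripts, each with a DAC/untreated ratio of 2 or more, a DAC value of 1 FPKM or more and a pass in the authors' own test. A gene that is not in it may have been lower, changed less, been low or missed that test, and which of these holds for ZEB1, ZEB2, TWIST1, VIM, CDH2, FN1 and SPARC in HMLER was not analysed here. Of all 23617 MDA-MB-231 symbols 7.85% were in the HMLER table, and of the 12525 past the filter 10.9% were, against 3 of the 10 EMT genes and 2 of the 9 past the filter. The tables were normalized separately, so levels are set side by side across the lines and not tested.

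**Figure D4:**
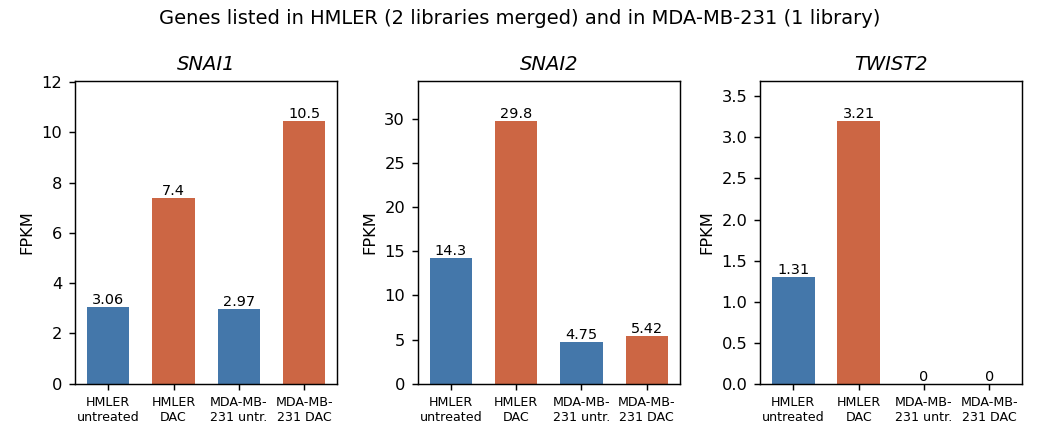
FPKM of SNAI1, SNAI2 and TWIST2 in untreated (blue) and DAC-treated (orange) HMLER cells, 1 value merged over 2 libraries each, and in MDA-MB-231 cells, 1 library each. For TWIST2 in HMLER, 1 of 2 transcripts was listed. SNAI1 is higher after DAC in both lines, SNAI2 is at 4.75 and 5.42 FPKM in MDA-MB-231, and TWIST2 is listed at 0 there.

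VIM encodes vimentin, the intermediate filament protein of mesenchymal cells. VIM (chromosome 10, 17270258 to 17279592) was at 3066 FPKM (252504 reads) without and 1134 FPKM (92757 reads) with DAC in MDA-MB-231, giving a ratio of 0.370 (interval 0.367 to 0.372). Its rank among all symbols went from 7 to 33, and its part of the summed FPKM from 0.520% to 0.236%. It was still the most abundant of the 10 genes after DAC. Cuffdiff's bounds were very wide, 0 to 10419 FPKM without and 120 to 2147 FPKM with DAC, and overlapped.

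CDH2 encodes N-cadherin, the cadherin that takes the place of E-cadherin in the cadherin switch of EMT. CDH2 (chromosome 18, 25530930 to 25757445) was at 0.0902 FPKM (16 reads) without and 1.06 FPKM (187 reads) with DAC in MDA-MB-231. The ratio of 11.8 (interval 7.05 to 21.0) was the largest of the 10 genes. It passed the filter through the DAC-treated library alone, and any gene that does so from this low a level has to differ. Cuffdiff's bounds, 0 to 0.254 and 0 to 2.22 FPKM, overlapped. CDH1, the E-cadherin gene, was listed at 0 in the untreated library and at 0.179 FPKM (35 reads) after DAC. It passed no threshold and was named after its values were seen.

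FN1 encodes fibronectin, a matrix glycoprotein that cells bind through integrins. FN1 (chromosome 2, 216225179 to 216300791) was at 39.8 FPKM (13931 reads) without and 111 FPKM (38479 reads) with DAC in MDA-MB-231, giving a ratio of 2.80 (interval 2.73 to 2.83). NM_002026 held 73.1% of this FPKM without and 77.3% with DAC, at 29.1 and 86.1 FPKM. The bounds of this transcript, 12.7 to 45.5 and 25.9 to 146 FPKM, overlapped. The other transcripts with signal also had higher values after DAC, with ratios from 1.69 for NM_212476 to 10.3 for the short NM_054034, which was at 0.149 and 1.54 FPKM.

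SPARC encodes osteonectin, a secreted protein that binds collagen and calcium. SPARC (chromosome 5, 151040657 to 151066615) was at 2.09 FPKM (301 reads) without and 11.3 FPKM (1622 reads) with DAC in MDA-MB-231, giving a ratio of 5.42 (interval 4.79 to 6.15). Cuffdiff's bounds, 0.236 to 3.93 and 5.53 to 17.1 FPKM, did not overlap. SPARC was the 1 gene of the 10 for which this held.

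Since DAC inhibits the DNA methyltransferases, which act on CpG, the bases in front of the start sites are shown for the markers that changed more than 2-fold. RefSeq windows were matched for 7 of the 10 genes; there were none for SNAI1, SNAI2 and TWIST1. The windows come from a table on GRCh38.p14 and were placed in hg19 by an exact match of their 250 bases before the start, which occurred 1 time in the chromosome. Capitals mark CpG, and each sequence reads 5′ to 3′ on the strand of the gene, for CDH2 (chr18:25757095-25757344, minus strand), FN1 (chr2:216300792-216301041, minus strand), SPARC (chr5:151066477-151066726, minus strand) and VIM (chr10:17269990-17270239, plus strand).
CDH2: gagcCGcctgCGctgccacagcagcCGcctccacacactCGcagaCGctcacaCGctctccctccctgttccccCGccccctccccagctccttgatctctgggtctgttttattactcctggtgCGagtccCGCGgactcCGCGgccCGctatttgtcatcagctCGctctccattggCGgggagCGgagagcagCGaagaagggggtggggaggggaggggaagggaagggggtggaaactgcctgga
FN1: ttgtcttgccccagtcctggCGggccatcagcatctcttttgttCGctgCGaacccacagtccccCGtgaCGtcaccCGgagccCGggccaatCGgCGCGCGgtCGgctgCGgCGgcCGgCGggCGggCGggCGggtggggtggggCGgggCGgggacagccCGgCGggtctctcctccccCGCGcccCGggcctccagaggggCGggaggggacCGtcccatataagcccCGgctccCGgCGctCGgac
SPARC: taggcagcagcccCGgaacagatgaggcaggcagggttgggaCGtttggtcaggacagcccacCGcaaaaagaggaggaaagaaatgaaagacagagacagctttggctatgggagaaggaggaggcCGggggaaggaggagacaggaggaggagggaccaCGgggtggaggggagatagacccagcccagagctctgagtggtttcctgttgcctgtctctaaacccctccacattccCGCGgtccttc
VIM: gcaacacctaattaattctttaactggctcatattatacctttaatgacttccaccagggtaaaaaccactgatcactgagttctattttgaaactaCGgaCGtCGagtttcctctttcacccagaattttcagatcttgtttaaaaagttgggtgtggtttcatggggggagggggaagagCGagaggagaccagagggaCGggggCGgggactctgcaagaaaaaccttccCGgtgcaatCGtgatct

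The CpG content in front of these genes differed. FN1 had 32 CpG in its 250 bases, CDH2 had 17, VIM had 8 and SPARC had 7, where the median of 35116 windows of all genes was 11 (quartiles 3 and 23). Each count is of 1 window and not of the whole promoter. TWIST2 had 26 CpG, ZEB1 had 14 and ZEB2 had 12 in the window nearest to the edge of the deposited locus. Other windows of the same gene differed: those of ZEB1 had 7 to 27 CpG, and a further window of CDH2 had 4. The E-box CAGGTG, read on both strands, was found in 17.5% of all windows and in 1 of the 7 windows nearest to the locus edges here, that of ZEB1. No methylation was measured in these RNA libraries. The paper also reports sequencing of captured methylated DNA from both lines, which was not used here. How the CpG counts bear on the changes was thus not tested.

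The partners and relatives of these genes were read in the same way. For every list below, the shares over all symbols past the filter are 10.8% higher and 4.82% lower. With 1 FPKM asked of both libraries they are 4.37% and 4.13%, and 7.85% of all MDA-MB-231 symbols were in the HMLER table. Of 14 other transcription factors that can drive EMT, 6 passed the filter, 2 were higher and 0 lower, and their median log2 change (with 1 FPKM added) was -0.09, beside -0.08 for all symbols past the filter. It was 0.03 once DAC values had been divided by the median ratio, -0.43 with 1 FPKM asked of both libraries and -0.60 with 5 FPKM in at least 1. Those higher were SOX4, from 0.783 to 3.19 FPKM, and FOXQ1, from 0.610 to 1.6 FPKM. Both passed through the DAC-treated library alone, and 0 were higher with 1 FPKM asked of both. SOX9 was the most abundant, at 31.3 and 17.8 FPKM. SNAI3 and TBX2 were in the HMLER table, SNAI3 with 0.261 and 2.28 FPKM and TBX2 with 0.561 and 1.52 FPKM. Of 7 E and ID proteins, which pair with or sequester the partners of TWIST, 5 passed, 1 was higher and 1 lower. ID2, admitted through the DAC-treated library alone, was at 0.586 and 5.52 FPKM in MDA-MB-231, and its HMLER values were 5.41 and 23.4 FPKM. ID1 was at 138 FPKM before and 47.7 FPKM after DAC. ID3 stayed between the limits, at 47.1 and 30.2 FPKM.

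None of the corepressors and turnover genes of the EMT factors was called on summed transcripts. Most lie between 10 and 100 FPKM, where 3.02% of all symbols were called higher and 4.02% lower. When any single transcript could pass, 2 corepressors were higher and 3 lower, and 0 turnover genes were higher and 3 lower. Of all symbols, 17.9% were then higher and 12.5% lower. All 12 corepressors of ZEB and SNAI proteins passed the filter, 0 were called in either direction, and their median log2 change was -0.21. HDAC1, a histone deacetylase, was at 115 and 98.6 FPKM. AJUBA, a LIM adaptor of Snail, was at 56.4 and 56.8 FPKM in MDA-MB-231, and AJUBA and WTIP were in the HMLER table with 11.8 and 37.7, and 0.756 and 5.47 FPKM. The 8 genes of the kinase and ubiquitin ligases that degrade these factors had a median of -0.23, with 0 called and 0 in the HMLER table. The most abundant were FBXO45, at 21.1 and 17.8 FPKM, and FBXO11, at 21.2 and 13.9 FPKM. Of 9 miR-200 family, miR-205 and antisense RNAs, 8 were listed at 0 in both libraries. For the miR-200 and miR-205 hairpins these values cannot show absence. Each hairpin is shorter than the bases subtracted to give the effective length, and such hairpins are poorly captured in the polyA RNA used. MIR205HG and ZEB2-AS1, also at 0, are longer RNAs. For these a count of 0 allows up to 3 reads, or 0.103 and 0.313 FPKM in the untreated library.

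Among 33 epithelial genes that the EMT factors are known to repress, 16 passed the filter, 7 were higher and 2 lower, with a median log2 change of 0.81. Over all symbols past the filter, 10.8% were higher and 4.82% lower. KRT19 went from 0.518 to 13.5 FPKM and its bounds were apart, ESRP2, a splicing factor of epithelial cells, from 0.378 to 3.89 FPKM, and CLDN3, a tight-junction claudin, from 0.921 to 4.08 FPKM. All 7 higher genes had been under 1 FPKM before DAC, so the filter admitted them through the DAC-treated library alone. With 1 FPKM asked of both libraries 0 were higher, beside 4.37% of all symbols, and the median was 0.09. KRT19, ESRP2 and CLDN3 were in the HMLER table too, among 12 of the 33. CLDN4 went from 7.62 to 2.60 FPKM and PKP3 from 12.3 to 5.93 FPKM. KRT18 and KRT8 were by far the most abundant, KRT18 at 174 and 164 FPKM and KRT8 at 154 and 141 FPKM.

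Of 37 other mesenchymal genes, 26 passed, 10 were higher, 6 were lower, and the median log2 change was 0.01. Of the 10 higher genes 8 had been under 1 FPKM before DAC, and with 1 FPKM asked of both libraries 2 were higher and the median was -0.49. By the log2 change with 1 FPKM added, the first among the higher ones were ACTA2, smooth muscle actin, from 0.705 to 15.1 FPKM, COL1A1, a chain of type I collagen, from 0.853 to 15.6 FPKM, and GREM1, a BMP antagonist, from 0.0126 to 4.54 FPKM. When bounds had to be apart, 3 of the 26 were higher, COL1A1, GREM1 and VCAN. In that setting 1 of 16 epithelial genes and 0.942% of all symbols were higher. Among the lower ones, AXL, a receptor tyrosine kinase, went from 400.3 to 127 FPKM, and NT5E, the CD73 ecto-enzyme, from 328 to 119 FPKM. In HMLER, 6 of the 37 were listed, ACTA2 with 17.6 and 45.1 FPKM and GREM1 with 12.4 and 66.7 FPKM among them.

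Of 18 other cadherin genes 4 passed, 2 were higher and 1 lower, with a median log2 change of 0.66. This median was 0.20 with 1 FPKM asked of both libraries, 0.12 with the largest transcript and -1.34 with 5 FPKM in at least 1 library, and 1 gene was higher in each of these settings. CDH4, R-cadherin, the closest relative of N-cadherin in the list, was at 30.5 FPKM (8159 reads) before and 1.25 FPKM (333 reads) after DAC, a ratio of 0.0408, and the bounds of its largest transcript were apart. CDH13, admitted through the DAC-treated library alone, went from 0.331 to 4.6 FPKM and CDH24 from 8.63 to 20.01 FPKM. CDH15 was the 1 cadherin in the HMLER table, with 0.492 and 1.16 FPKM. Of 9 other intermediate filament genes 2 passed, NES and SYNM, 0 were called, and their median was 0.06, or -0.19 with the largest transcript. NES was at 13.4 and 10.6 FPKM and SYNM at 2.15 and 3.23 FPKM. In HMLER, 6 of these 9 were listed, DES with 0.578 and 3.74 FPKM, PRPH with 0.711 and 1.97 FPKM and INA with 0.873 and 5.69 FPKM, and VIM was not.

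Of 10 genes of fibronectin receptors 7 passed, with a median of -0.09 that became 0.04 after the same division and -0.26 with 1 FPKM asked of both libraries. ITGB3 was higher, from 0.555 to 1.66 FPKM and thus through the DAC-treated library alone, and ITGA3 was lower, from 120 to 51.6 FPKM. ITGB1, the common beta subunit, was at 203 and 120 FPKM. SDC4 was in the HMLER table, with 49.97 and 133 FPKM. Of 7 other SPARC family genes 1 passed, FSTL1, at 137 and 111 FPKM, and the others were under 1 FPKM in both libraries. Of 11 TGF-beta and SMAD genes 10 passed, 0 were higher and 1 was lower, with a median of -0.15: TGFBR2 went from 87.5 to 36.7 FPKM. TGFB1 was at 41.2 and 56.5 FPKM, and SMAD3, SMAD7 and SKIL were in the HMLER table, SKIL with 1.97 and 6.39 FPKM.

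**Figure D5:**
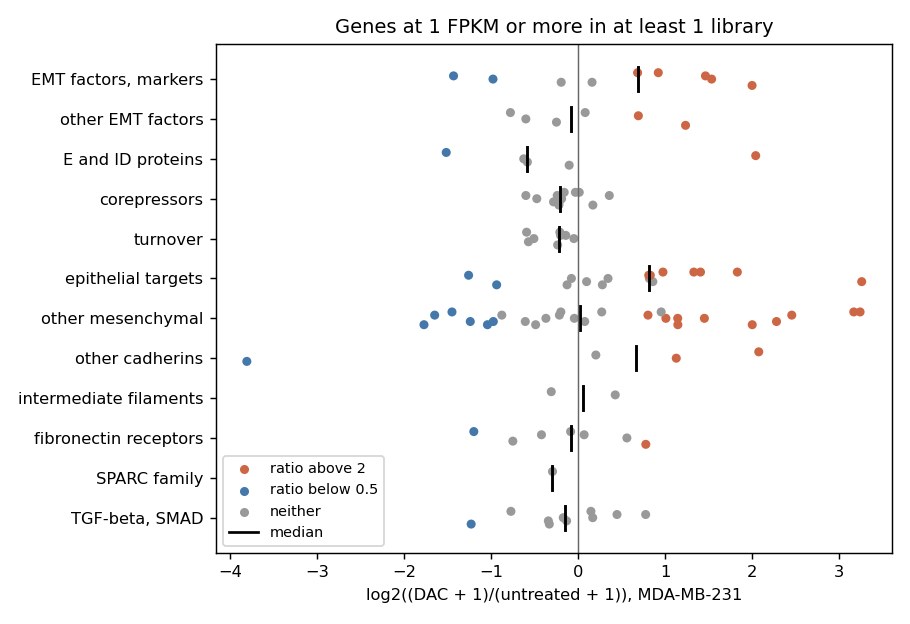
Log2 of (DAC + 1)/(untreated + 1) in MDA-MB-231 for the EMT genes and 11 related lists, genes past the filter only; orange points have a ratio above 2, blue points a ratio below 0.5, and black bars are medians. The epithelial targets and the other mesenchymal genes have points on both sides of 0, and CDH4 lies at -3.81.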

How the data were processed

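RNA-seq libraries of MDA-MB-231 and HMLER cells, untreated or treated with DAC, were grouped by title. The authors aligned reads to hg19 with TopHat2 and deposited FPKM values per RefSeq transcript from Cuffdiff, run on the Galaxy server; versions and library scaling are not given in the sources used here. The deposited fold changes, test statistics, p-values and q-values were not used.

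FPKM was summed over the transcripts of each symbol, in HMLER over the listed transcripts only. Log2 changes used a pseudocount of 1 FPKM, which understates the change of low genes. No test across genes was run, as no spread is available. The worth of 1 read was searched for in transcripts over 2000 bases, alone in their symbol and locus, as values under 10 reads, with effective length the length minus 204 bases (untreated) or 205 bases (DAC). Exact 95% intervals of ratios were conditional binomial. The steps were tested on simulated data. Locus starts were converted to 1-based positions.

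The genes and the lists were chosen with earlier results of these data known, and the lists support nothing by themselves. Named in each list were up to 3 genes in each direction past the limits or listed in HMLER, and the 2 most abundant, of which some are not reported here. Alternatives were other filters, pseudocounts, scaling, transcripts, status and bounds. Scripts ran under Python 3.11.15 with matplotlib 3.10.9, scipy 1.17.1, pandas 2.3.3 and numpy 2.4.6.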

Additional observations from a re-analysis of the deposited data

Results flagged for a closer look

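CALD1 and CD44 each had 1 transcript listed as higher in HMLER, of 5 and 8 in MDA-MB-231, so the whole genes could not be read there. In MDA-MB-231 both had lower values after DAC, summed and for the transcript listed in HMLER. CALD1, caldesmon, had a summed ratio of 0.765 in MDA-MB-231 (0.671 for the same transcript), and the listed transcript was at 9.55 and 19.5 FPKM in HMLER. CD44, a hyaluronan receptor, had a summed ratio of 0.653 (0.848 for the same transcript), and the listed transcript was at 1.23 and 8.26 FPKM in HMLER. In untreated MDA-MB-231 cells that transcript was at 15.0 of the summed 212 FPKM. Neither passed the 2-fold limit in MDA-MB-231, and the difference between the lines was not tested, since each has 1 value per condition. SMAD3 had a summed ratio of 0.779 but 1.32 for the transcript listed in HMLER.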

How the results depend on the processing

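No paired analysis was possible because each condition has 1 value in either table, merged over the libraries in HMLER. No library could be left out for the same reason. With no filter, 75 of 173 related genes were higher (23 as reported). Of all symbols 5193 or 22% were higher (1350 or 10.8%) and 1080 or 4.57% lower (604 or 4.82%). With 1 FPKM or more in both libraries, 3 of 77 related genes and 494 symbols (4.37%) were higher, and 4 of 8 EMT genes were, without CDH2. With 5 FPKM in at least 1 library, 3 of 6 EMT genes (SNAI1, FN1 and SPARC), 7 of 72 related genes and 465 symbols (4.95%) were higher. With 1 FPKM added in the ratio, the same 3 of 9 EMT genes were higher, 1 was lower (VIM), and 863 symbols (6.89%) were higher. The lower EMT genes were also 1, VIM, after division by the median ratio and with the largest transcript in place of the sum. When any transcript could pass, 25 of 97 related genes were lower (12), and 2219 symbols (17.9%) were higher and 1554 (12.5%) lower. With bounds apart, 1 of 9 EMT genes was higher and 0 lower. Of 98 related genes 4 were higher and 1 lower, and 118 symbols (0.942%) were higher and 35 (0.279%) lower. No EMT gene past the limits changed its direction under the settings run. Beyond what each filter admits, the cause of these shifts was not tested. In HMLER, 2 of the 3 EMT genes (SNAI1 and SNAI2) were left with 5 FPKM or with 1 FPKM added. Among the EMT genes called, the fewest reads without DAC lay behind CDH2 (16) and TWIST1 (72).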
